A study of Arabidopsis thaliana with 6 samples.

Results

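The nuclear genome of Arabidopsis encodes most of the light-harvesting proteins, many photosystem subunits and the small subunit of Rubisco, and 48 such genes were followed here among the 33557 genes of the expression tables. They were taken by name: nuclear genes whose short name in the tables begins with LHCA, LHCB, LHB1B, CAB and a digit, PSAD to PSAP, PSBO to PSBZ, or RBCS. Of these, 6 are LHCA genes, 14 are LHCB genes, 12 encode subunits of photosystem I, 12 encode subunits of photosystem II and 4 encode the Rubisco small subunit. The rule itself uses names and no measured value. Both AT1G29910 and AT1G29920 carry the short name LHCB1.2 in the tables and are given by identifier below.

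Light-harvesting proteins bind chlorophyll and pass the energy they absorb to a photosystem, LHCA proteins to photosystem I and LHCB proteins mainly to photosystem II. Photosystem II draws electrons from water, photosystem I passes them on to ferredoxin, and Rubisco fixes carbon dioxide with the products. The core subunits of both photosystems and the large subunit of Rubisco are made in the plastid, while the genes followed here are transcribed in the nucleus and are best known as light-induced genes of leaves, with low expression in roots.

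The libraries came from roots of 10-day-old plants on medium with 10 mM nitrate, 3 libraries of CEPDL2ox and 3 of wild type (WT). By the methods of the study, plants grew on vertical agar plates in continuous light. Whether the roots were shaded is not given in the sources used here. CEPDL2ox plants carry CEPDL2, a gene of the glutaredoxin family, under the constitutive 35S promoter, and the WT is the Col accession, in which the overexpressor was made. Which transgenic line was sequenced, and whether it was 1 line or several, is not given in the sources used here. The methods of the study state independent biological replicates for its experiments in general, while the labels do not say that these libraries came from separate cultures. The tests below therefore measure the spread between these libraries, which may be technical. RNA was prepared with a poly(A)-selecting kit that does not keep the strand, and levels are FPKM, read numbers normalized for transcript length and for the depth of the library, which allows levels of different genes to be set side by side. In bulk roots, fewer cells of a type and less RNA per cell cannot be told apart.

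The target gene matched the labels, with between 7948 and 8838 FPKM of CEPDL2 in CEPDL2ox libraries and between 3.27 and 9.45 FPKM in WT libraries. All 13 root markers examined, among them SHR, SCR and CASP1, were above 0 in every library. None was called different, where 0.424% of all genes tested were called lower and 1.16% higher. The root hair genes RHD6 and EXP7 and the phosphate transporter gene PHT1;1 were higher in CEPDL2ox with a limma adjusted p under 0.05. The differences were 0.73, 0.44 and 0.49 on the log2 scale. Without WT replicate 1 all 3 missed that threshold, at similar differences of 0.67, 0.45 and 0.50. The share of all genes with such a p in either direction was not computed. WT replicate 1 stood apart from the other libraries in the genes described here and, at low levels, in many but not all markers of aerial tissue. Of 20 markers of leaf polarity, stomata, trichomes and the shoot meristem, 13 had their highest value in WT replicate 1. That held for 16.5% of all genes tested, among which only 2 of the markers were. Above 0 only in that library were 8 markers, a share not computed over all genes. Their values there were near the floor, between 0.272 FPKM for MUTE and 1.35 FPKM for EPF1. Between 12 and 15 markers were at 0 in CEPDL2ox libraries, 3 in WT replicate 1 and 15 and 17 in the remaining WT libraries. The summed level of the markers was between 7.03 and 9.14 FPKM in CEPDL2ox libraries, 23.5 FPKM in WT replicate 1 and between 3.75 and 3.89 FPKM in the remaining WT libraries. Outside WT replicate 1 most of it came from AS2 and EPFL9, which were above 0 in every library. EPFL9 was highest in CEPDL2ox replicate 3, at 6.0 FPKM. AS2 had 1.89 FPKM in WT replicate 1, below every CEPDL2ox library, and MYB60 and FAMA were also highest in a CEPDL2ox library. The meristem markers STM and CLV3 and the stomatal lineage marker BASL were at 0 in WT replicate 1. The part of aerial tissue in the values below was not tested, and each comparison is given with and without WT replicate 1.

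The members of a family are close in sequence, and reads of 75 bases can only be assigned where copies differ. The coding sequences of RBCS-1B, RBCS-2B and RBCS-3B, which lie side by side on chromosome 5, are between 96.7% and 97.3% identical to each other and between 90.4% and 90.6% identical to that of RBCS-1A on chromosome 1 (TAIR10.1). Coding bases 20 to 94 are the 75-base stretch without gaps where the copies differ most from RBCS-1A in total, a best case for 1 read. They are printed 5′ to 3′ for RBCS-1A (chr1:25048158-25049667), RBCS-1B (chr5:15383167-15385320), RBCS-2B (chr5:15380907-15382071) and RBCS-3B (chr5:15376988-15378642), all on the minus strand. Capitals mark bases that differ from RBCS-1A, which number 17, 16 and 14 in the other copies.
RBCS-1A: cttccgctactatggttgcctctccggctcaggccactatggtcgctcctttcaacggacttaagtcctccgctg
RBCS-1B: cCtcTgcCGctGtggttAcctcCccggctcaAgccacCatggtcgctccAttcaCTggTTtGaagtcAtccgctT
RBCS-2B: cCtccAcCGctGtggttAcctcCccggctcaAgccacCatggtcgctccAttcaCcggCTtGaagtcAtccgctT
RBCS-3B: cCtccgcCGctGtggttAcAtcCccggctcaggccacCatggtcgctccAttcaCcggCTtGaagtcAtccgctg
RBCS-1A shares none of its 75-base windows exactly with another gene. In RBCS-1B, RBCS-2B and RBCS-3B the share of such windows is 9.01%, 4.99% and 14.96%, so a part of the reads of these copies could have been split among them by the counting, which is not described in the sources used here.

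The LHCB1 proteins, the main components of the LHCII trimer, are encoded by 5 of the genes. LHCB1.3 (chr1:10477885-10479114, plus strand), AT1G29920 (chr1:10474656-10475969, minus strand) and AT1G29910 (chr1:10472280-10473502, minus strand) are neighbours on chromosome 1. LHB1B1 (chr2:14524607-14525918, plus strand) and LHB1B2 (chr2:14522524-14523568, minus strand) are neighbours on chromosome 2 and are 92.5% identical in coding sequence. Coding bases 187 to 261, again the stretch with the most differences in total, are shown because the levels of these copies turn out to differ widely. Capitals are at bases that differ from LHCB1.3.
LHCB1.3: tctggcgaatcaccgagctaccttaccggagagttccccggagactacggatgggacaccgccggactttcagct
AT1G29910: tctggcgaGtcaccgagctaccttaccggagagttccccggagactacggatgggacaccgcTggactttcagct
AT1G29920: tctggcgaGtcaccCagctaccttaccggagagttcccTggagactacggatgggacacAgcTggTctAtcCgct
LHB1B1: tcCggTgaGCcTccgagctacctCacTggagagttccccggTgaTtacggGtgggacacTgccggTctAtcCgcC
LHB1B2: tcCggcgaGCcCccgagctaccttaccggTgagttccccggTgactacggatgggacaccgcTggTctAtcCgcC
AT1G29910 differs from LHCB1.3 at 2 of these bases, AT1G29920 at 8, LHB1B1 at 15 and LHB1B2 at 11. Over whole transcripts, between 3.66% and 11.8% of the 75-base windows of these 5 genes occur in another gene.

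Of all 48 genes, 29 share no 75-base window with another gene, including all 12 photosystem II genes. Annotated neighbours overlap 18 of the genes, and without strand the reads of both genes in an overlap cannot be told apart. The largest overlaps in the transcript were at PSAG, where 57.4% of the windows also belong to AT1G55673, and at PSAH1, where 48.1% belong to AT3G16130. For LHCB2.4 the share was 37.5%, with AT3G27700, and for PSAE1 26.7%, with AT4G28755. These shares refer to RefSeq transcripts, which can be longer than the gene models behind the FPKM. For LHCB2.4 the gene ends at base 10257489 in RefSeq and at 10257011 in the FPKM annotation. Levels of these genes are uncertain to an extent that is not known.

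Light-regulated plant promoters are known for the G-box, CACGTG, and the I-box, GATAAG. In the 250 bases before the annotated start of the gene, on either strand, the G-box occurred in 11 of the 48 genes (22.9%) and in 6.49% of 27443 protein-coding genes. The I-box occurred there in 11 genes (22.9%) and in 12.3% of protein-coding genes. In the 500 bases before the start codon, which include the 5′ untranslated region, the G-box was present in 24 genes (50.0%) against 9.30% of all, and the I-box in 32 genes (66.7%) against 23.5%. These matches are a description of the letters in each window, without a test, and the motifs can overlap each other by 1 base. RBCS-2B held the most matches of the Rubisco genes in the shorter window, and its 250 bases (chr5:15382072-15382321, minus strand) are printed with G-box and I-box letters in capitals, the I-box also as its reverse complement, CTTATC.
RBCS-2B: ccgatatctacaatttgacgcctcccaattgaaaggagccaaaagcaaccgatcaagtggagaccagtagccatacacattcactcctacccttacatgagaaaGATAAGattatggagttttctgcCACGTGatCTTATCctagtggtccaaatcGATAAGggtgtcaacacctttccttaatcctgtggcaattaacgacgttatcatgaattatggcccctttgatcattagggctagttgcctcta
In the shorter window PSBQ1, PSBQ2 and PSAH2 hold 2 G-boxes each and PSBS holds 0. A link between motifs and fold changes was not tested. PSBQ1, which has the smallest adjusted p-value of the 48 genes in the comparison of all 6 libraries below, holds its pair of G-boxes in the 150 bases before its start (chr4:11334202-11334351, plus strand), again in capitals.
PSBQ1: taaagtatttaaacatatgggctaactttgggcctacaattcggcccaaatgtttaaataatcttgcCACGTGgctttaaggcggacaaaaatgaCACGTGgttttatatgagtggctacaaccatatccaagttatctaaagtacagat
The sequences are those of the RefSeq annotation of TAIR10.1, in which all 48 genes were found by identifier.

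Together the 48 genes held a small share of root transcript in 5 libraries and a much larger one in WT replicate 1. Their summed level was 1142, 1438 and 728 FPKM in CEPDL2ox replicates 1, 2 and 3. It was 9066, 1811 and 1393 FPKM in WT replicates 1, 2 and 3. As a share of all FPKM in the library this was between 0.0672% and 0.125% in CEPDL2ox, 0.864% in WT replicate 1 and between 0.132% and 0.179% in the remaining WT libraries. The median gene had 13.5, 15.8 and 7.67 FPKM in CEPDL2ox replicates 1, 2 and 3, against 130.4, 24.3 and 16.4 FPKM in WT replicates 1, 2 and 3.

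**Figure D1:**
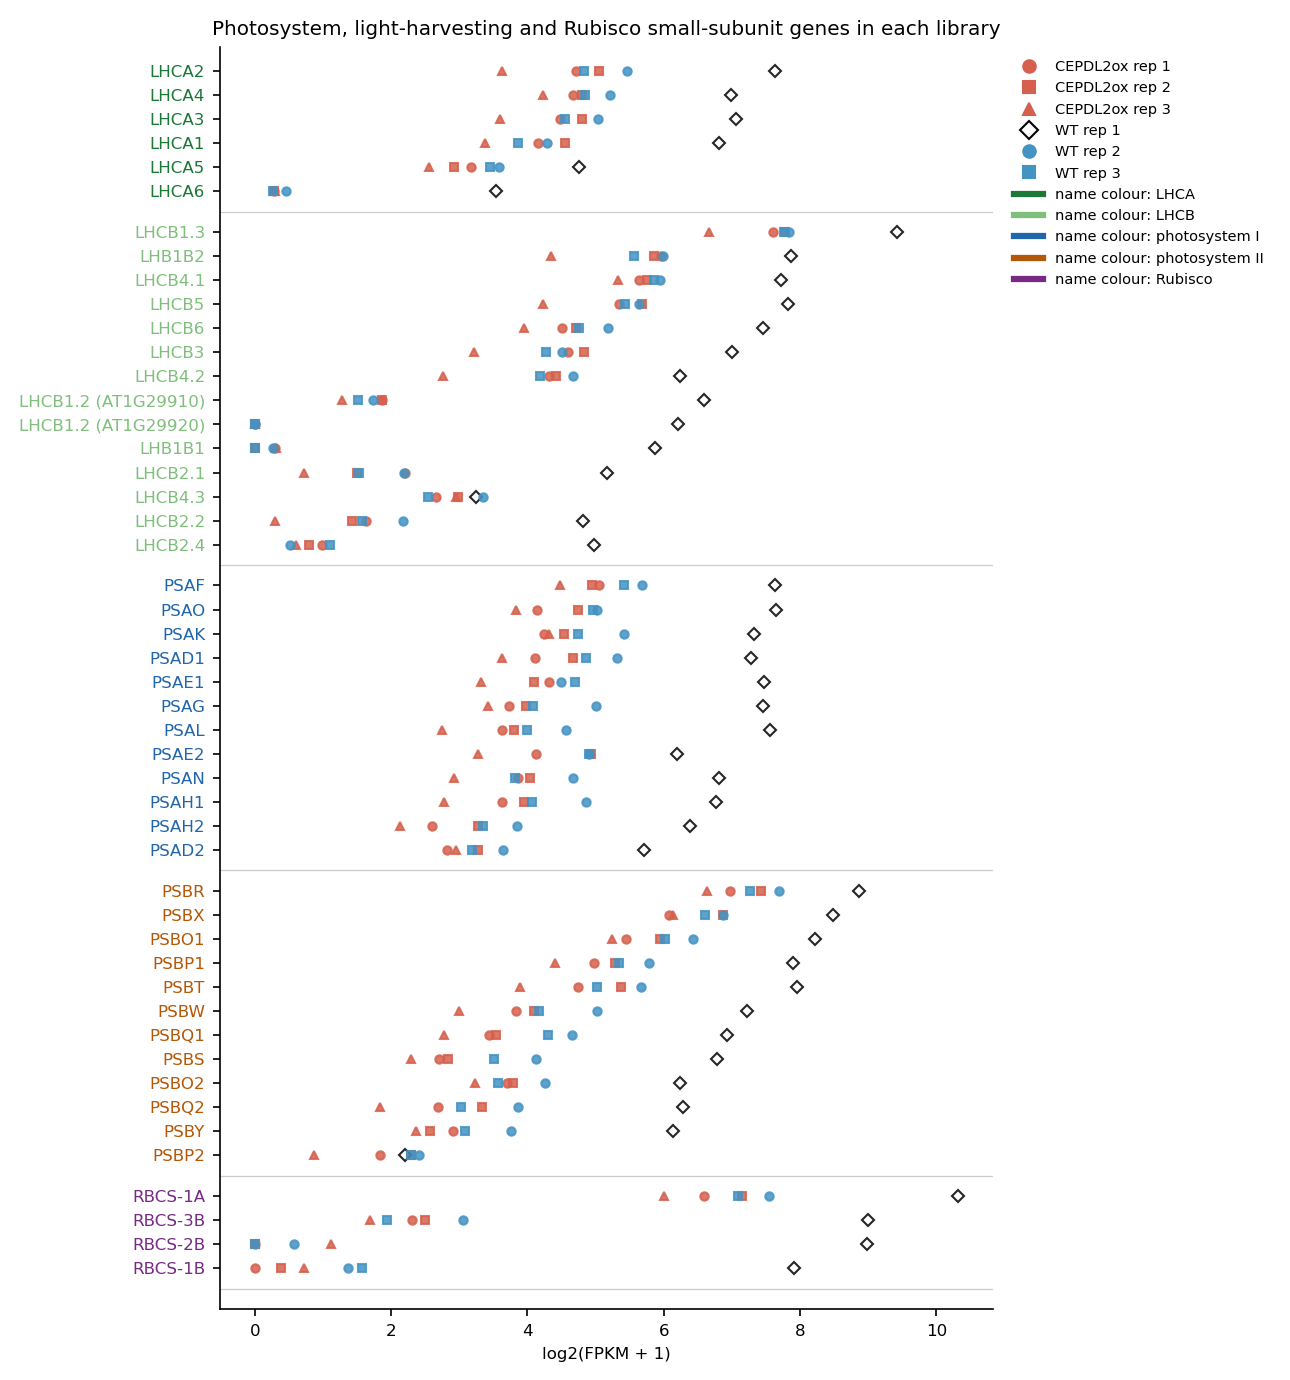
Level of each of the 48 genes in each library, as log2(FPKM + 1), grouped by subgroup and ordered by mean level. Points are single libraries. The open diamonds of WT replicate 1 lie to the right of all other libraries for 46 of 48 genes, the exceptions being LHCB4.3 and PSBP2.

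WT replicate 1 was the highest library for 46 of the 48 genes (95.8%), where 16.5% of all 19597 genes tested were highest in that library. In all 46 its value was more than 2 times that of every other library, which held for 1.53% of all genes tested. Among the 46 are LHCA6, AT1G29920, LHB1B1, LHCB2.4, RBCS-1B and RBCS-2B, which passed the filter for testing only through WT replicate 1. Its ratio to the mean over the other 5 libraries had a median of 7.13 over 47 genes and ran between 1.17 for PSBP2 and 1513 for RBCS-2B. AT1G29920 has no such ratio, since it was listed at 0 in every other library. Among the other 5 libraries, the order of the 48 genes was similar, with Spearman's rho between 0.95 and 0.98 over genes. Between WT replicate 1 and each of them rho was between 0.63 and 0.68. These coefficients describe 48 genes that are not independent and that share libraries.

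A second, smaller pattern ran within groups. CEPDL2ox replicate 3 was the lowest CEPDL2ox library for 39 of 48 genes (81.2%), against 38.1% of all genes tested. WT replicate 2 was above WT replicate 3 for 44 of 48 genes (91.7%), against 49.0% of all genes tested. The median log2 ratio was -0.21 for CEPDL2ox replicate 1 over 2, 0.58 for replicate 1 over 3 and 0.78 for replicate 2 over 3. It was 0.44 for WT replicate 2 over 3. Over WT replicate 2, the ratio was -0.70, -0.41 and -1.33 for CEPDL2ox replicates 1, 2 and 3. Over WT replicate 3 it was -0.26, 0.00 and -0.92. The genes thus moved together between libraries of 1 group. With WT replicate 1 set aside, these amounts overlapped in size with those between the groups, which reached farther.

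**Figure D2:**
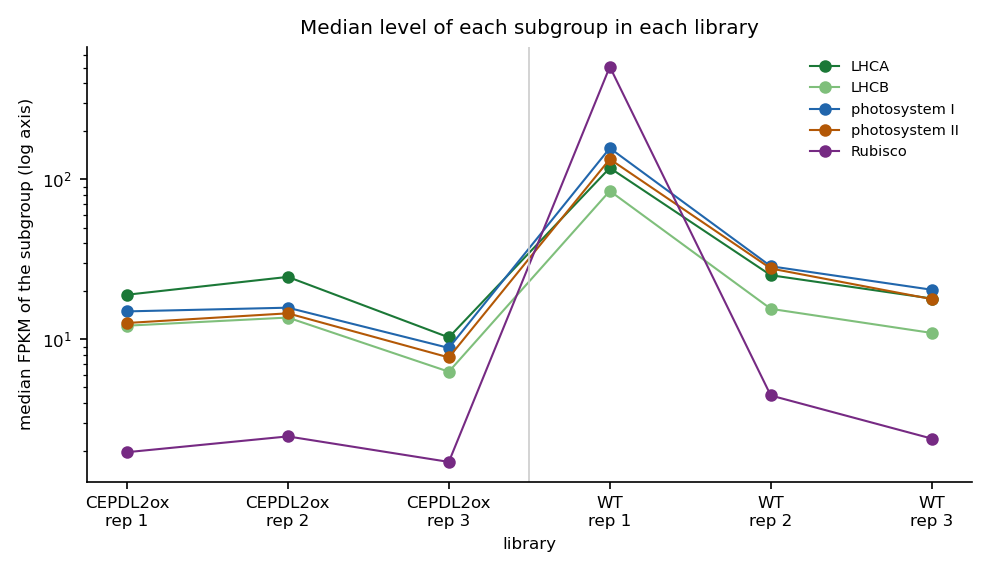
Median FPKM of the genes of each subgroup in each library, on a log axis, with CEPDL2ox libraries left of the grey line and WT libraries right of it. In WT replicate 1 the Rubisco median reached 507 FPKM and passed the other subgroups, while in every other library it was the lowest, at most 4.45 FPKM.

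The subgroups stood in different order in WT replicate 1 than elsewhere. Median levels of LHCA genes were 19.0, 24.6 and 10.3 FPKM in CEPDL2ox replicates 1, 2 and 3, against 118, 25.2 and 18.0 FPKM in WT replicates 1, 2 and 3. LHCB medians were 12.2, 13.7 and 6.27 FPKM in CEPDL2ox, against 84.7, 15.5 and 10.9 FPKM in WT. Both antenna groups overlapped between CEPDL2ox and the lower WT libraries. Photosystem I medians were 14.9, 15.8 and 8.82 FPKM in CEPDL2ox, against 157, 28.6 and 20.4 FPKM in WT. Photosystem II medians were 12.6, 14.5 and 7.70 FPKM in CEPDL2ox, against 134, 27.7 and 17.8 FPKM in WT. For both photosystems every CEPDL2ox median lay below every WT median. The Rubisco medians were 1.97, 2.47 and 1.71 FPKM in CEPDL2ox, against 507, 4.45 and 2.39 FPKM in WT, and those of CEPDL2ox overlapped WT replicate 3.

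Sums weight the abundant genes, and by sum LHCA was the lowest subgroup in every library. The CEPDL2ox mean of the summed level was 0.270 times the WT mean over all 48 genes and 0.688 times without WT replicate 1. For photosystem I this ratio was 0.229 and, without WT replicate 1, 0.578, the lowest of the subgroups without that library. For Rubisco it was 0.109 and 0.618, for LHCA 0.314 and 0.731, for LHCB 0.369 and 0.787, and for photosystem II 0.336 and 0.676. Photosystem I was the only subgroup whose sums did not overlap without WT replicate 1, with 178, 223 and 121 FPKM in CEPDL2ox against 344 and 257 FPKM in WT. Differences between subgroups were not tested.

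The excess of WT replicate 1 over the mean of WT replicates 2 and 3 came to 7465 FPKM over the 48 genes. The 4 Rubisco genes held 31.6% of it, photosystem II 22.2%, LHCB 21.3%, photosystem I 18.4% and LHCA 6.46%. Relative to the mean of the other 5 libraries, the antenna and photosystem groups were close to each other, with median ratios for WT replicate 1 of 6.38 for LHCA, 6.43 for the 13 LHCB genes that have such a ratio, 7.35 for photosystem I and 7.08 for photosystem II. The Rubisco median on this scale was 195. AT1G29920 was listed at 0 in all 5 other libraries and has no ratio.

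**Figure D3:**
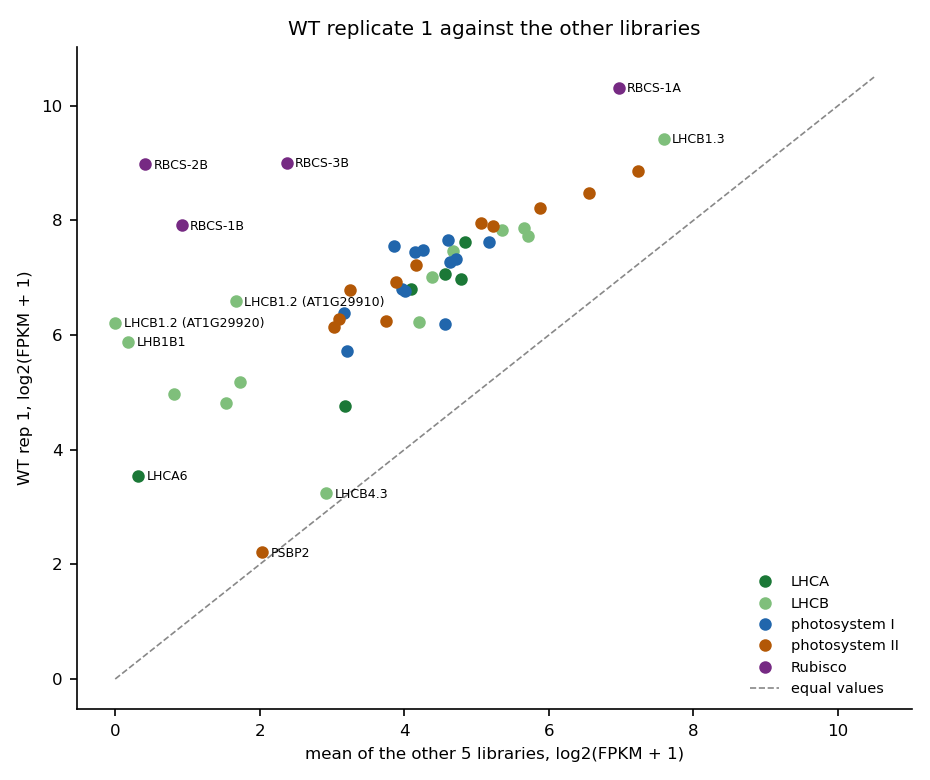
Level of each gene in WT replicate 1 (vertical) against its mean over the other 5 libraries (horizontal), both as log2(FPKM + 1), coloured by subgroup, with a dashed line of equal values. Genes near 0 in the other libraries, such as RBCS-2B at 503 FPKM and AT1G29920 at 73.3 FPKM in WT replicate 1, lie farthest above the line.

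In every library other than WT replicate 1, 10 genes were under 5 FPKM: LHCA6, LHB1B1, AT1G29910, AT1G29920, LHCB2.1, LHCB2.2, LHCB2.4, PSBP2, RBCS-1B and RBCS-2B. Their values in WT replicate 1 ran between 3.62 and 503 FPKM. By estimate, 11 of the 48 genes rested on fewer than 10 reads in CEPDL2ox replicate 3, among them all 10 of these. The estimates use the longest RefSeq transcript of a gene and come out too high where the gene model behind the FPKM is shorter. In WT replicate 3 the estimates ran between 0 reads, for AT1G29920, LHB1B1 and RBCS-2B, and 19.5 reads, for RBCS-1B. The figure for RBCS-1B is too high. Its RefSeq transcript has 1894 bases, while its whole gene spans chr5:15384117-15385247 in the FPKM annotation.

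The Rubisco small subunit joins the plastid-encoded large subunit in the enzyme that fixes carbon dioxide. RBCS-1A, the most abundant copy in every library, had 95.1, 140.3 and 63.3 FPKM in CEPDL2ox replicates 1, 2 and 3, against 1276, 186 and 136 FPKM in WT replicates 1, 2 and 3. CEPDL2ox replicate 2 lay above WT replicate 3. RBCS-3B had 3.93, 4.64 and 2.24 FPKM in CEPDL2ox, against 511, 7.32 and 2.82 FPKM in WT. RBCS-2B was listed at 0, 0 and 1.18 FPKM in CEPDL2ox, against 503, 0.483 and 0 FPKM in WT. RBCS-1B was listed at 0, 0.299 and 0.641 FPKM in CEPDL2ox, against 240.1, 1.57 and 1.96 FPKM in WT, and was the only Rubisco gene without overlap between the groups. Its log2 fold change was -3.25 ± 1.56 (SE) with all libraries and -1.10 ± 0.27 without WT replicate 1, with limma adjusted p-values of 0.255 and 0.098. Outside WT replicate 1 this gene is near the floor, with an estimated 5.6 reads or fewer in CEPDL2ox replicate 3, so few reads separate the groups.

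**Figure D4:**
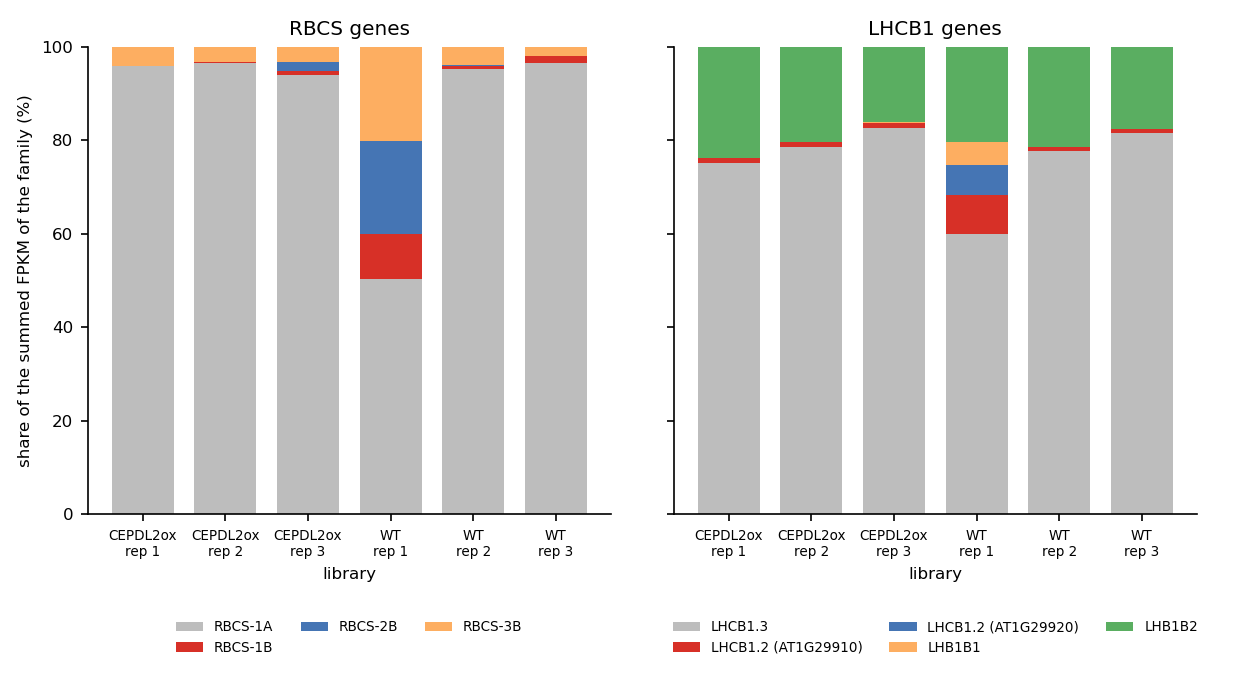
Share of each gene in the summed FPKM of the RBCS genes (left) and the LHCB1 genes (right) in each library, in percent. RBCS-1A makes up between 94.0% and 96.6% of its family in 5 libraries and 50.4% in WT replicate 1, and LHCB1.3 between 75.2% and 82.6% in 5 libraries and 59.9% in WT replicate 1.

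The make-up of the family therefore differed in WT replicate 1. RBCS-1A made up between 94.0% and 96.6% of the summed RBCS level in all CEPDL2ox libraries and in WT replicates 2 and 3. In WT replicate 1 it made up 50.4%, with 20.2% from RBCS-3B, 19.9% from RBCS-2B and 9.49% from RBCS-1B. The summed level of the family was 99.0, 145 and 67.3 FPKM in CEPDL2ox, against 2530.0, 196 and 140.4 FPKM in WT.

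LHCA proteins form the antenna belt of photosystem I, with LHCA1 to LHCA4 as its main parts. LHCA2 had 25.2, 32.0 and 11.4 FPKM in CEPDL2ox replicates 1, 2 and 3, against 197, 42.9 and 27.4 FPKM in WT replicates 1, 2 and 3. LHCA4 had 24.5, 26.7 and 17.7 FPKM in CEPDL2ox, against 125, 36.0 and 27.7 FPKM in WT, without overlap. LHCA3 had 21.2, 26.8 and 11.1 FPKM in CEPDL2ox, against 133, 31.7 and 22.5 FPKM in WT. LHCA3 and LHCA2 overlapped between CEPDL2ox replicate 2 and WT replicate 3. LHCA1 had 16.7, 22.4 and 9.42 FPKM in CEPDL2ox, against 111, 18.6 and 13.5 FPKM in WT. Without WT replicate 1 its log2 fold change was -0.05 ± 0.34 (SE), the nearest to 0 of the LHCA genes.

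LHCA5 and LHCA6 are minor antenna proteins that help link photosystem I to the chloroplast NDH complex. LHCA5 had 8.04, 6.54 and 4.87 FPKM in CEPDL2ox, against 26.1, 11.01 and 9.89 FPKM in WT, without overlap. LHCA6 had between 0.215 and 0.231 FPKM in CEPDL2ox, against 10.6, 0.378 and 0.202 FPKM in WT. The value of 0.231 FPKM in CEPDL2ox replicate 3 corresponds to an estimated 1.1 reads.

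The LHCB1, LHCB2 and LHCB3 proteins make up the LHCII trimers, the mobile antenna that serves both photosystems. LHCB1.3 had 194, 219 and 100.1 FPKM in CEPDL2ox replicates 1, 2 and 3, against 683, 227 and 216 FPKM in WT replicates 1, 2 and 3. LHB1B2 had 61.3, 56.8 and 19.4 FPKM in CEPDL2ox, against 231, 62.8 and 46.5 FPKM in WT. Both overlapped between the groups, with CEPDL2ox replicate 3 the lowest of all libraries. AT1G29910 had 2.65, 2.66 and 1.43 FPKM in CEPDL2ox, against 95.1, 2.33 and 1.87 FPKM in WT. AT1G29920 was listed at 0 in all CEPDL2ox libraries and in WT replicates 2 and 3, and at 73.3 FPKM in WT replicate 1. LHB1B1 was at most 0.241 FPKM in CEPDL2ox, against 57.8, 0.197 and 0 FPKM in WT. LHCB1.3 and LHB1B2 thus made up nearly all LHCB1 transcript outside WT replicate 1, where AT1G29910, AT1G29920 and LHB1B1 added 8.34%, 6.43% and 5.07%. The LHB1B2 share of 20.3% in WT replicate 1 lay within its range of 16.0% to 23.7% in the other libraries.

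The 3 LHCB2 genes together had 6.69, 4.23 and 1.40 FPKM in CEPDL2ox, against 92.6, 7.48 and 4.998 FPKM in WT. LHCB2.1 was the highest of them in WT replicate 1, at 35.1 FPKM, followed by LHCB2.4 at 30.4 FPKM and LHCB2.2 at 27.1 FPKM. Outside WT replicate 1 none of these 3 genes passed 3.62 FPKM in any library. LHCB3 had 23.3, 27.4 and 8.34 FPKM in CEPDL2ox, against 128, 21.8 and 18.4 FPKM in WT, with a pair of CEPDL2ox libraries above both lower WT libraries.

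LHCB4, LHCB5 and LHCB6, also called CP29, CP26 and CP24, are single antenna proteins between the trimers and the photosystem II core. LHCB4.1 had 48.7, 52.8 and 39.0 FPKM in CEPDL2ox, against 210.5, 60.5 and 57.2 FPKM in WT, and LHCB5 had 39.7, 50.4 and 17.8 FPKM in CEPDL2ox, against 226, 48.5 and 42.0 FPKM in WT. LHCB4.1 did not overlap between the groups and LHCB5 did. LHCB6 had 21.7, 25.1 and 14.5 FPKM in CEPDL2ox, against 175, 35.3 and 25.9 FPKM in WT, without overlap. LHCB4.2 had 19.0, 20.4 and 5.77 FPKM in CEPDL2ox, against 74.3, 24.5 and 17.1 FPKM in WT.

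LHCB4.3, a divergent copy of CP29, was 1 of the 2 genes that were not highest in WT replicate 1. It had 5.30, 6.89 and 6.76 FPKM in CEPDL2ox, against 8.44, 9.16 and 4.79 FPKM in WT. Its share of the LHCB4 sum was between 6.06% and 13.1% in the other 5 libraries and 2.88% in WT replicate 1. Its log2 fold change of -0.17 ± 0.23 (SE) was the closest to 0 of all 48 genes.

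On the stromal side of photosystem I, PSAD and PSAE form the docking site of ferredoxin. PSAD1 had 16.3, 24.3 and 11.4 FPKM in CEPDL2ox replicates 1, 2 and 3, against 154, 38.7 and 28.1 FPKM in WT replicates 1, 2 and 3, without overlap. PSAE1 had 19.0, 16.1 and 9.01 FPKM in CEPDL2ox, against 177, 21.5 and 25.0 FPKM in WT, also without overlap. PSAE2 had 16.5, 29.5 and 8.64 FPKM in CEPDL2ox, against 72.1, 29.1 and 28.9 FPKM in WT, so that CEPDL2ox replicate 2 lay above both lower WT libraries. The balance between the PSAE copies differed in WT replicate 1, where PSAE1 held 71.0% of their sum, against 35.2% to 53.4% elsewhere. PSAD1 held 74.9% of the PSAD sum in WT replicate 1, within its range of 62.7% to 77.6% elsewhere. PSAD2 had between 6.03 and 8.67 FPKM in CEPDL2ox, against 51.6, 11.5 and 8.11 FPKM in WT.

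PSAF and PSAN take part in docking plastocyanin on the lumenal side. PSAF, the photosystem I gene with the highest mean, had 32.1, 30.0 and 21.3 FPKM in CEPDL2ox, against 197, 50.3 and 41.9 FPKM in WT, without overlap. Its log2 fold change was -1.42 ± 0.52 (SE) with all libraries and -0.73 ± 0.19 without WT replicate 1, with limma adjusted p-values of 0.156 and 0.114. PSAN had 13.6, 15.4 and 6.62 FPKM in CEPDL2ox, against 111, 24.5 and 13.1 FPKM in WT.

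PSAG and PSAK lie at the antenna side of the core, and PSAL, PSAH and PSAO at the side that receives LHCII in state transitions. PSAO had 16.6, 25.7 and 13.2 FPKM in CEPDL2ox, against 199.8, 31.4 and 30.1 FPKM in WT. PSAK had 18.0, 22.3 and 19.0 FPKM in CEPDL2ox, against 159.7, 41.7 and 25.8 FPKM in WT. Neither overlapped between the groups. PSAG had 12.2, 14.7 and 9.75 FPKM in CEPDL2ox, against 174, 31.1 and 15.9 FPKM in WT, and PSAL had 11.3, 13.0 and 5.71 FPKM in CEPDL2ox, against 187, 22.8 and 14.97 FPKM in WT. PSAH1 had 11.3, 14.5 and 5.88 FPKM in CEPDL2ox, against 108, 28.2 and 15.8 FPKM in WT, and PSAH2 had 5.09, 8.63 and 3.37 FPKM in CEPDL2ox, against 82.95, 13.4 and 9.18 FPKM in WT. These 4 genes did not overlap either, which brings the photosystem I genes without overlap to 9 of 12, where 16.1% of all genes tested lay without overlap below WT. PSAL had the largest relative excess in WT replicate 1 of the photosystem I genes, 13.8 times the level elsewhere, and PSAE2 the smallest, 3.20 times.

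PSBO, PSBP, PSBQ and PSBR belong to the lumenal side of photosystem II, where water is split, and PSBO stabilizes the manganese cluster. PSBR had 125, 171 and 97.9 FPKM in CEPDL2ox replicates 1, 2 and 3, against 465, 205 and 152 FPKM in WT replicates 1, 2 and 3. PSBO1 had 42.5, 60.4 and 36.7 FPKM in CEPDL2ox, against 298, 85.5 and 64.1 FPKM in WT. PSBP1 had 30.6, 38.1 and 20.1 FPKM in CEPDL2ox, against 237, 54.1 and 39.6 FPKM in WT. PSBO1 and PSBP1 did not overlap between the groups and PSBR did. PSBQ1 had 9.81, 10.6 and 5.83 FPKM in CEPDL2ox, against 120.3, 24.1 and 18.7 FPKM in WT, so that the lowest WT library was well above the highest CEPDL2ox library. Its log2 fold change was -2.04 ± 0.62 (SE) with all libraries and -1.23 ± 0.26 without WT replicate 1, with limma adjusted p-values of 0.102 and 0.0701.

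The second copies of these genes were lower. PSBO2 had 12.0, 12.9 and 8.397 FPKM in CEPDL2ox, against 74.4, 18.2 and 10.9 FPKM in WT. PSBQ2 had 5.41, 9.12 and 2.56 FPKM in CEPDL2ox, against 77.0, 13.5 and 7.11 FPKM in WT. PSBP2 was the other gene that was not highest in WT replicate 1, with 2.59, 3.89 and 0.834 FPKM in CEPDL2ox, against 3.62, 4.32 and 3.88 FPKM in WT. PSBP2 held 1.5% of the PSBP sum in WT replicate 1 and between 3.98% and 9.25% in the other libraries. The shares of the PSBO and PSBQ copies in WT replicate 1 lay within their range in the other libraries.

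PSBS senses acidification of the lumen and is required for rapid quenching of excess light energy. It had 5.48, 6.15 and 3.88 FPKM in CEPDL2ox, against 109, 16.5 and 10.3 FPKM in WT, without overlap. The log2 fold change of PSBS was -2.20 ± 0.74 (SE) with all libraries and -1.21 ± 0.25 without WT replicate 1, with limma adjusted p-values of 0.128 and 0.0697, the smallest of the 48 genes in the second fit. PSBX, a small membrane subunit, had 66.8, 116 and 69.0 FPKM in CEPDL2ox, against 356, 116 and 96.7 FPKM in WT, with CEPDL2ox replicate 2 at the level of WT replicate 2. The remaining low-mass subunits were PSBT, PSBW and PSBY. PSBT had 25.8, 40.4 and 13.9 FPKM in CEPDL2ox, against 247, 49.6 and 31.5 FPKM in WT. PSBW had 13.3, 16.2 and 6.99 FPKM in CEPDL2ox, against 148, 31.4 and 17.0 FPKM in WT, and PSBY had 6.54, 4.92 and 4.17 FPKM in CEPDL2ox, against 69.2, 12.6 and 7.48 FPKM in WT. PSBW and PSBY did not overlap between the groups.

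None of the 48 genes was called different between CEPDL2ox and WT. The comparison used limma on log2(FPKM + 1), and a call needed an adjusted p-value under 0.05 over all 19597 genes tested together with an absolute log2 fold change of more than 1. Of all genes tested, 0.424% were called lower and 1.16% higher in CEPDL2ox. When the libraries were scaled to the same summed FPKM, 0.638% were called lower and 0.97% higher, and again none of the 48. An adjusted limma p under 0.05 with a fold of any size below 0 was found for 2.0% of all genes tested and for none of the 48. At an unadjusted limma p under 0.05, 17 of the 48 genes (35.4%) were lower in CEPDL2ox, against 11.8% of all genes tested, and none was higher. The smallest adjusted p-value was 0.102, for PSBQ1.

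The log2 fold change was below 0 for 48 of 48 genes, against 54.5% of all genes tested, and under -1 for 41 of 48 genes (85.4%), against 1.72%. The median log2 fold change was -1.47 over the 48 genes and -0.03 over all genes tested. Without AT1G29920, which was at 0 in all but 1 library, the median was -1.46. By subgroup the median was -1.13 for LHCA, -1.31 for LHCB, -1.64 for photosystem I, -1.50 for photosystem II and -2.65 for Rubisco. The unadjusted count comprised 9 photosystem I genes, 7 photosystem II genes and LHCA5.

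Much of this size came from WT replicate 1. Without it, the median log2 fold change was -0.63 over the 48 genes and -0.03 over all genes tested. It was under -1 for 4 genes, against 1.02% of all genes tested. These were PSBQ1, PSBS, RBCS-1B and PSAH1. The fold change was below 0 for 44 of 48 genes (91.7%), against 54.3% of all genes tested, at 0 for AT1G29920 and above 0 for AT1G29910, LHB1B1 and RBCS-2B. By subgroup the median was then -0.48 for LHCA, -0.36 for LHCB, -0.78 for photosystem I, -0.69 for photosystem II and -0.54 for Rubisco. None of the 48 genes was called, where 0.367% of all genes tested were called lower and 0.98% higher, and none had an adjusted limma p under 0.05 with a fold of any size below 0, where 0.786% of all genes did. At an unadjusted limma p under 0.05, 17 genes (35.4%) were lower, against 9.69% of all genes tested. The filter mean included WT replicate 1 in this fit too. LHCA6, AT1G29920, LHB1B1, LHCB2.4, RBCS-1B and RBCS-2B averaged at most 0.895 FPKM over the other 5 libraries and passed only through WT replicate 1. They remain in these counts and medians, which for such genes rest on values near the floor.

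**Figure D5:**
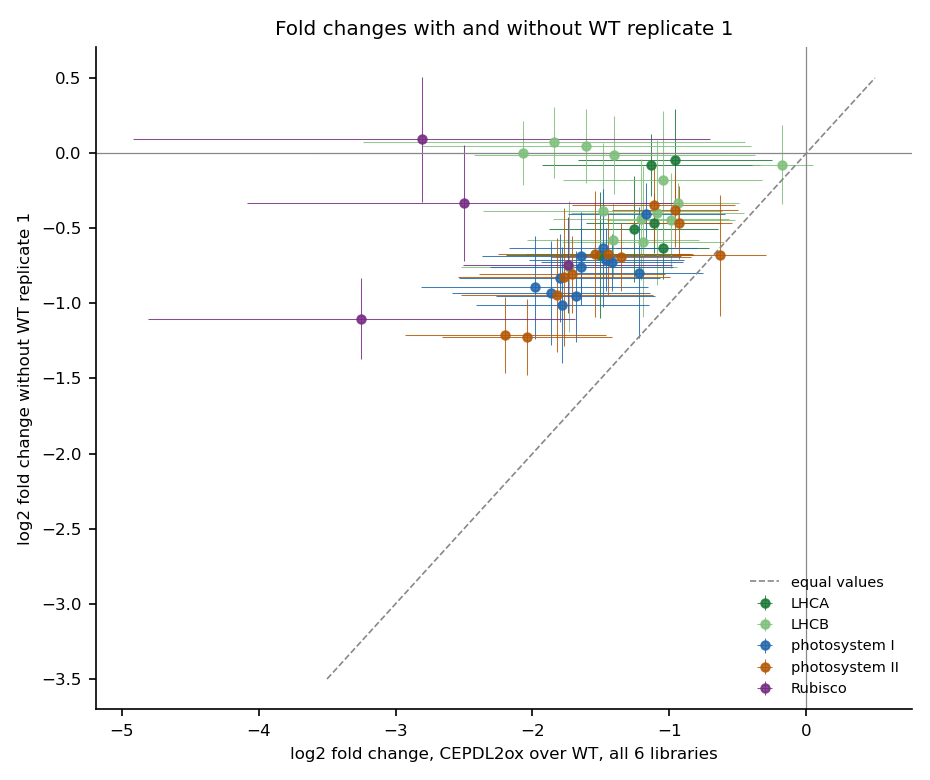
Log2 fold change of each gene, CEPDL2ox over WT, with all 6 libraries (horizontal) and without WT replicate 1 (vertical), with bars of 1 SE from limma and a dashed line of equal values. All but 1 gene, PSBP2, lie above the dashed line, and the medians are -1.47 and -0.63.

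Whether the groups overlapped does not depend on how high WT replicate 1 was. Every CEPDL2ox value lay below every WT value for 20 of 48 genes (41.7%), against 16.1% of all genes tested. Without WT replicate 1 this held for 20 genes as well, against 21.3% of all genes tested. Of the 20 genes, 9 encode photosystem I and 6 photosystem II subunits, 2 are LHCA genes, 2 are LHCB genes and 1 is a Rubisco gene. The Rubisco gene is RBCS-1B, which is near the floor outside WT replicate 1. With 3 libraries against 3, the lowest p-value an exact permutation test (two-sided) allows for 1 gene is 0.1. Groups without overlap always give this value, so it adds nothing to the count.

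Other nuclear genes of photosynthesis were mostly highest in WT replicate 1 as well. A list of 28 genes of electron transport, the ATP synthase and the Calvin cycle had 26 genes highest in WT replicate 1, against 16.5% of all genes tested. None was called in either direction, where 0.424% of all genes tested were called lower and 1.16% higher. The log2 fold change was below 0 for 27 of 28 genes, against 54.5% of all genes tested, with a median of -1.29. Without WT replicate 1 it was below 0 for 26 genes, against 54.3%, with a median of -0.49. Over all genes tested the median was -0.03 in both fits. The transketolase gene TKL1, of the Calvin cycle and the pentose phosphate pathway, had 259, 227 and 259 FPKM in CEPDL2ox, against 226, 181 and 171 FPKM in WT, a log2 fold change of 0.37 ± 0.12 (SE) with a limma adjusted p of 0.109. CP12-1, which holds Calvin cycle enzymes in an inactive complex, had 124, 167 and 88.3 FPKM in CEPDL2ox, against 203, 145 and 121 FPKM in WT, with overlap between the groups. FD1, a leaf-type ferredoxin, passed the adjusted p-value but not the fold needed for a call, with 98.0, 102 and 101 FPKM in CEPDL2ox, against 190.5, 144 and 130.3 FPKM in WT. The log2 fold change of FD1 was -0.60 ± 0.13 (SE), with a limma adjusted p of 0.0411, and -0.45 with an adjusted p of 0.0468 without WT replicate 1. In WT replicate 1 the carbonic anhydrase gene CA1 had 149.9 FPKM, against at most 0.384 FPKM in any other library.

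Of 12 genes of chlorophyll synthesis and greening, 11 were highest in WT replicate 1, against 16.5% of all genes tested, and 1 of the 10 tested was called lower, against 0.424% of all genes tested. PORB, which encodes a protochlorophyllide reductase, had 10.8, 16.9 and 8.48 FPKM in CEPDL2ox, against 56.4, 29.9 and 26.6 FPKM in WT. Its log2 fold change was -1.54 ± 0.31 (SE) with a limma adjusted p of 0.0334, and -1.21 with an adjusted p of 0.0768 without WT replicate 1. HY5, a light-signalling transcription factor, had 78.5, 96.1 and 75.8 FPKM in CEPDL2ox, against 95.3, 87.9 and 99.4 FPKM in WT. HEMA1, which encodes a glutamyl-tRNA reductase at the start of the pathway, had 22.2, 18.8 and 17.8 FPKM in CEPDL2ox, against 30.8, 25.6 and 19.8 FPKM in WT.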

How the data were processed

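The authors prepared total RNA from roots, made libraries with the TruSeq RNA Sample Prep Kit v2 and sequenced single-end 75-bp reads. They mapped the reads to TAIR10 in the illumina BaseSpace Sequence Hub and deposited 1 table per library, with FPKM values for 33557 genes. The quantification tool is not given in the sources used here, and the confidence columns of the tables repeat the FPKM. No member had a failed status. The depth was estimated from genes above 0 in only 1 library, with transcripts over 600 bases. Their most common FPKM, scaled for length, was assumed to be 1 read. This gave between 5139000 and 5523000 reads in CEPDL2ox and between 5885000 and 6274000 reads in WT libraries, an approximate figure. Between 23.5% of these genes, in WT replicate 1, and 50.4%, in CEPDL2ox replicate 2, lay within 5% of the assumed value.

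Libraries were grouped by the sample labels. In R 4.3.3, limma 3.58.1 (lmFit, then eBayes with its trend option) was fitted to log2(FPKM + 1). Genes entered where their average over all libraries reached 1 FPKM, which 19597 genes and all 48 members did, with Benjamini-Hochberg adjustment over all of them. Fits with 1 library left out used the same genes, so some members entered only through WT replicate 1. A fold change on this scale understates the change of low genes. Single genes were compared with an exact permutation test. No set test was run. The thresholds of a call are those of the study. Alternatives were a pseudocount of 0.1, no filter or a filter at 5 FPKM, 3 other scalings, no trend, a block for the replicate number, and each library left out in turn.

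Sequences, overlaps and motifs were read from TAIR10.1 (RefSeq) with Python 3.11.15 and Biopython 1.88. RefSeq gene starts and ends can differ from those of the tables. The windows before a gene, the shared windows and the lengths behind the read estimates follow RefSeq. The rule for naming genes took the 4 members with the highest mean in each subgroup, members with an adjusted p under 0.05, members not highest in WT replicate 1, and the 2 lowest and 2 highest fold changes. For the other lists it took called genes and the 2 with the highest mean. The remaining members, and CA1 and FD1, were named after their values were seen. The members and lists were chosen with earlier results of these data known.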

Additional observations from a re-analysis of the deposited data

How the results depend on the processing

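The count of 0 members called lower held under all alternatives but the replicate block, which called 1, LHCA5, with a log2 fold change of -1.05 and a limma adjusted p of 0.0398. Deviations from the group mean had correlations between -0.03 and 0.02 for same-numbered libraries, and between -0.03 and 0.03 for the others. Deviations within so few libraries cannot show whether same-numbered libraries were grown or prepared together. The block called 220 genes of the whole table higher and 98 lower. The median log2 fold change of the members ran between -2.04 without WT replicate 3 and -0.63 without WT replicate 1. Without WT replicate 1, 3 fold changes turned positive, and with each library left out they ran between -2.49 and 0.045 for AT1G29910, -2.87 and 0.071 for LHB1B1, and -4.40 and 0.091 for RBCS-2B, the lowest without WT replicate 3. For the whole table, 228 genes were called higher and 83 lower. No filter on low values left 87 higher and 24 lower, and the same summed FPKM gave 190 higher and 125 lower. Leaving out 1 library gave between 154 and 206 higher and between 49 (without WT replicate 2) and 77 (without WT replicate 3) lower, with 54 lower without CEPDL2ox replicate 1 and 53 without replicate 3. The cause was not tested. In all other alternatives run, the direction of each member tested and its side of the threshold were unchanged. In WT replicate 3, AT1G29920, LHB1B1, RBCS-2B and LHCA6 rest on an estimated 0 to 1.1 reads, and the depth does not separate such levels from 0.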

Other observations

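Genes of the same complexes that are encoded in the plastid were barely detected in these poly(A)-selected libraries. Of 21 plastid genes for photosystem subunits and the Rubisco large subunit, 11 were at 0 in every library and 4 passed the filter. None of those that passed was called, where 0.424% of all genes tested were called lower and 1.16% higher. RBCL, which encodes the Rubisco large subunit, had 0.876, 0.439 and 1.41 FPKM in CEPDL2ox replicates 1, 2 and 3, against 3.13, 0.385 and 0.548 FPKM in WT replicates 1, 2 and 3. PSBA, which encodes the D1 protein of photosystem II, had between 0.420 and 0.678 FPKM in CEPDL2ox, against 3.73, 1.66 and 0.394 FPKM in WT. The highest value of both genes was in WT replicate 1. The short genes PSBI and PSBF had the highest means of the list, PSBI with 108 FPKM in CEPDL2ox replicate 3 and 0 elsewhere. PSBF had 0, 37.9 and 0 FPKM in CEPDL2ox, against 0, 33.2 and 35.4 FPKM in WT.

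Among greening regulators, GLK1, a transcription factor that activates nuclear photosynthesis genes, was at most 0.127 FPKM in CEPDL2ox, against 8.30, 0.112 and 0.596 FPKM in WT. Its paralogue GLK2 had 6.47, 5.88 and 5.98 FPKM in CEPDL2ox, against 10.7, 4.50 and 3.39 FPKM in WT, above GLK1 in every library. CGA1, a GATA factor of greening, was listed at 0 in every library other than WT replicate 1, where it had 1.23 FPKM. These genes, RBCL and PSBA were picked after their values were seen.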
